A study of Macaca mulatta with 6 samples.

Results

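The mitochondrial ribosomal protein genes analysed here were the rows of the count table whose symbol begins with MRPL or MRPS followed by a digit. This rule found 53 of the 17795 genes listed. Of the 53, 39 encode proteins of the large subunit, 13 encode proteins of the small subunit, and MRPS36 encodes a protein that in mammals belongs to the alpha-ketoglutarate dehydrogenase complex. Other genes of the family, among them MRPL12, MRPS2, MRPS7 and MRPS11, had no row, so 39 and 13 are not the sizes of the subunits. MRPS30 and MRPS18A are counted with the large subunit, where both proteins sit in spite of their names. The rule used names only and no measured value.

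Mitochondria carry their own ribosomes, which translate the few messenger RNAs of the mitochondrial genome into subunits of the respiratory chain. The RNA of these ribosomes is made inside the mitochondrion, while all of their proteins are encoded in the nucleus, made in the cytosol and imported. Part of the proteins descend from bacterial ribosomal proteins and part arose only in mitochondria, and the genes of both kinds are scattered over the chromosomes.

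Bulk RNA sequencing was performed on 6 libraries of cultured rhesus monkey (Macaca mulatta) spermatogonial stem cells (SSCs), which the sample labels give as testis. The SSC PDGF+ group held 3 libraries from cultures with platelet-derived growth factor (PDGF), and the SSC PDGF- group held 3 libraries from cultures to which none was added. By the culture methods of the study, cells grew in droplets of basement membrane extract, in a medium that also contained GDNF, EGF, LIF, bFGF and Wnt3a. Genotype, donor, age and days in culture were not given for single libraries. In both groups replicate 1 was labelled batch 1 and replicates 2 and 3 were labelled batch 2, and the labels do not say what a batch is.

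Totals ranged from 13095467 to 14102697 counts in SSC PDGF+ and from 10593805 to 11605908 in SSC PDGF-. Of the markers of the labelled cell type, DDX4 and GFRA1 were low. DDX4, an RNA helicase of germ cells, stayed at or under a counts-per-million level (CPM, after TMM scaling) of 3.64. GFRA1, the GDNF receptor of undifferentiated spermatogonia, stayed at or under 0.739 CPM. The study lists STRA8 and REC8 for differentiated spermatogonia. STRA8 was at 0 in all libraries, while REC8 had counts in each of them, 185 in all. The mean of REC8 was 1.63 CPM in SSC PDGF+ and 3.64 CPM in SSC PDGF-. All 8 of the undifferentiated spermatogonial markers in the table had counts, but MAGEA4, PIWIL4, ERBB4 and ZBTB16 had only 1, 3, 5 and 10 over the 6 libraries. The summed level of the 8 markers was 135 to 152 CPM in SSC PDGF+ and 177 to 260 CPM in SSC PDGF-, most of it from ID4. FGFR3, also among these markers, had a mean of 13.7 CPM in SSC PDGF+ and 57.8 CPM in SSC PDGF-. The 4 fibroblast markers summed to 10900 to 16000 CPM in SSC PDGF+ and 10200 to 12800 CPM in SSC PDGF-. Most of this came from COL1A1 and COL1A2, with means of 6840 and 6060 CPM in SSC PDGF+ and 4520 and 5340 CPM in SSC PDGF-. PDGFRA and DCN went the other way, with 550 and 817 CPM in SSC PDGF+ and 812 and 1260 CPM in SSC PDGF-. The 3 spermatid markers in the table summed to 48.3 to 76.4 CPM in SSC PDGF+ and to 414 to 687 CPM in SSC PDGF-. The part of these cell types in the results on mitochondrial ribosomal protein genes was not tested, and in bulk libraries fewer cells of a type and less RNA per cell cannot be told apart.

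Of the 53 members, 49 passed the filter on low counts, with totals over the 6 libraries of 257 to 11127 counts and a median of 4054. The 4 others were MRPL39 with 23 counts in all, MRPS10 with 10, and MRPS21 and MRPS34 with none in any library. A count of 0 allows up to 3 counts in a library, by counting error alone. MRPS34 shares 25.12% of its exon bases with NME3 on the same strand. MRPL10, MRPL2, MRPS24 and MRPS5 had the same count in every library as a neighbouring gene, namely SCRN2, CUL7, URGCP and ZNF514, so that their reads cannot be assigned to one gene of the pair. Exons of 14 members overlap those of another gene, and the sources used here do not state whether counting used the strand. The overlap was 49.41% of the exon bases of MRPL47 (with ACTL6A), 42.21% for MRPL37 (SSBP3), 29.48% for MRPS22 (COPB2) and 26.07% for MRPS15.

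The transcripts of the members differ widely in base composition, with which the differences between groups and batches moved. Stretches of coding sequence are therefore shown for members that lay at either end of the difference between batches, 120 bases from the centre of the coding sequence of the longest RefSeq transcript (annotation release 103, Mmul_10), with G and C in capitals. MRPL4 (centre at chr19:10011202-10012718, plus strand) and MRPL54 (chr19:3656615-3656734, plus strand) were lower in batch 1. MRPL47 (chr2:84744286-84749212, minus strand) and MRPL19 (chr13:33080215-33082413, minus strand) were higher in batch 1.
MRPL4: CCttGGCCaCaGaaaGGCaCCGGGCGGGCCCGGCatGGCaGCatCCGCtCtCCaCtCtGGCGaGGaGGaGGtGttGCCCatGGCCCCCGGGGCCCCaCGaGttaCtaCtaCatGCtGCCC
MRPL54: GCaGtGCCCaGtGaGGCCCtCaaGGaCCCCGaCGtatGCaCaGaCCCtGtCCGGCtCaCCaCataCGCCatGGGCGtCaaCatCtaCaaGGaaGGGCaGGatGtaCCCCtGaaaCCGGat
MRPL47: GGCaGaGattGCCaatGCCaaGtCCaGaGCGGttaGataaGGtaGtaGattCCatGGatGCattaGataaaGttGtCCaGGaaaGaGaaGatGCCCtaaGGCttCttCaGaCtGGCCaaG
MRPL19: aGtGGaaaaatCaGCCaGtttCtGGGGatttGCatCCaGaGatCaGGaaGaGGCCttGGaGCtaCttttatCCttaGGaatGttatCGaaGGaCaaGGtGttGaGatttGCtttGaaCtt
G or C made up 82 of the 120 bases shown for MRPL4 and 72 for MRPL54, against 56 for MRPL47 and 51 for MRPL19. MRPL23, not shown, fell more in batch 1 than MRPL54 and had 67 in its 120 bases. Over the whole transcript the GC content was 63.6% for MRPL4, 61.9% for MRPL54, 38.4% for MRPL47 and 38.5% for MRPL19. Among the 49 tested members it ran from 34.8% in MRPL42 to 64.9% in MRPL38, with a median of 51.6%.

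Levels differed among members far more than between groups. Per kilobase (kb) of the longest transcript, the mean level over the 6 libraries ran from 1.37 CPM per kb for MRPL53 to 177 CPM per kb for MRPL51. The ratio was 129 and the median 38.5 CPM per kb. The low end and this ratio rest on an MRPL53 transcript of 4249 bases with a coding sequence of 2289 bases, against 1452 for MRPL37. Which protein that transcript encodes was not checked. MRPL51 stood at 170.5 ± 17.6 CPM per kb in SSC PDGF+ and 183 ± 26.8 in SSC PDGF- (SD, n = 3). MRPL23 followed with 100.2 ± 36.4 and 181 ± 57.7 CPM per kb, then MRPL34 with 119 ± 31.6 and 136 ± 26.8, and these 3 neighbours in the order overlapped within their spread in SSC PDGF-. All 3 are large-subunit proteins: MRPL23 lines the exit of the tunnel through which the new peptide leaves, MRPL34 is the counterpart of a bacterial protein, and MRPL51 occurs only in mitochondria. The lowest levels per kb after MRPL53 were those of MRPS5 at 2.00 CPM per kb, whose counts are shared with ZNF514, and MRPL44 at 8.42. MRPL44, MRPS22, MRPS30 and MRPL19, between 8.42 and 9.15 CPM per kb, did not differ beyond their spread over all libraries, which includes differences between groups. Within SSC PDGF+, MRPS30 (10.9 ± 0.301) lay above MRPL44 (8.67 ± 0.39), and within SSC PDGF- it (6.63 ± 0.501) lay below MRPL44 (8.17 ± 0.581). With the median transcript length of each gene in place of the longest, the order was nearly the same (rank correlation 0.977 over 49 members), but MRPL44 moved from place 47 to place 34, MRPL37 from 16 to 6, and MRPL53, at 2.06 CPM per kb, came to lie above MRPS5 at 2.00.

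**Figure D1:**
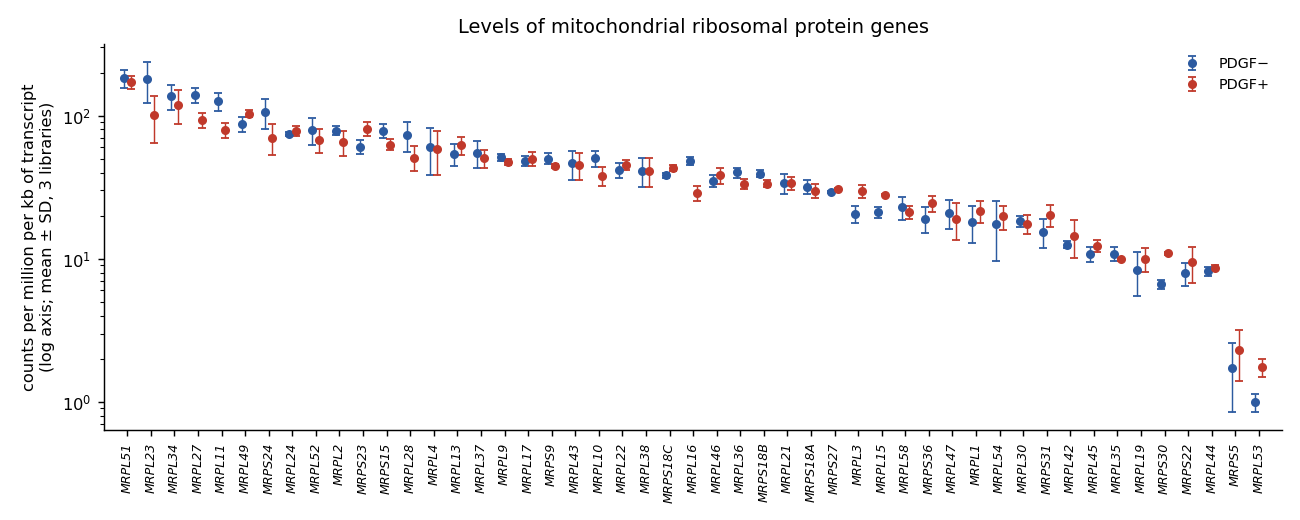
Level of each of the 49 tested members in CPM per kb of transcript (log axis), as mean ± SD of 3 libraries for SSC PDGF- (blue) and SSC PDGF+ (red), ordered by the mean over all libraries. MRPL51 stands at 177 and MRPL53 at 1.37 CPM per kb.

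The first comparison asked how PDGF in the culture changed these genes. Of 49 members, 2 were higher and 3 lower in SSC PDGF+, and the median log2 fold change over the 49 was -0.0038, against 0.018 over all 11539 genes tested. The background was 7.61% of all genes tested called higher and 10.7% called lower. The calls, made without a block, are those of edgeR's quasi-likelihood test at a Benjamini-Hochberg adjusted p under 0.05. Upper quartile scaling gave 1 higher and 3 lower. All 5 called members belong to the large subunit. In Mmul_10 their gene records lie on the plus strand, MRPL16 at chr14:14227993-14232919, MRPL11 at chr14:8119089-8122102, MRPL27 at chr16:46408984-46414293, MRPS30 at chr6:44938147-44949972 and MRPL53 at chr13:34332599-34344269. The values of the groups did not overlap for 15 of the 49 members, against 37.6% of all genes tested.

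MRPL16, the counterpart of the bacterial protein that helps to place transfer RNA at the catalytic centre, fell with PDGF. Its level was 34.6, 31.0 and 27.1 CPM in SSC PDGF+ replicates 1, 2 and 3 and 55.2, 50.8 and 49.1 CPM in the SSC PDGF- replicates. All 3 SSC PDGF+ libraries lay below all 3 SSC PDGF- libraries, and the log2 fold change was -0.74 (SE 0.156, adjusted p = 0.0138 by edgeR).

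MRPL11 encodes a protein at the base of the stalk that recruits translation factors. It measured 58.0, 74.3 and 70.4 CPM in SSC PDGF+ and 90.8, 109.4 and 121.4 CPM in SSC PDGF-. The groups did not overlap, and replicate 1 was the lowest library of each group. The log2 fold change was -0.67 (SE 0.167, adjusted p = 0.0284 by edgeR).

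MRPL27 encodes a protein of the central protuberance region whose bacterial counterpart reaches towards the catalytic centre. It measured 59.3, 75.8 and 66.7 CPM in SSC PDGF+ and 87.0, 106.7 and 108.7 CPM in SSC PDGF-. The groups again did not overlap, with a log2 fold change of -0.58 (SE 0.159, adjusted p = 0.0383 by edgeR). EME1 overlaps 5.79% of its exon bases on the opposite strand.

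MRPS30, a protein of the large subunit found only in mitochondria, rose with PDGF. It measured 73.9, 70.5 and 70.4 CPM in SSC PDGF+ and 41.1, 42.4 and 47.3 CPM in SSC PDGF-. The spread within a group was small beside the gap, and the log2 fold change was 0.71 (SE 0.136, adjusted p = 0.00933 by edgeR). It was the one member still called with each of the 6 libraries left out in turn.

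MRPL53, named for a mitochondria-specific protein near the stalk, was the lowest member per kb of the longest transcript. That transcript, 1 of 8 in the gene record, has a coding sequence of 2289 bases, and which protein it encodes was not checked. The values below are therefore those of the gene record as annotated. The record measured 6.41, 8.52 and 7.29 CPM in SSC PDGF+ and 3.94, 3.83 and 4.90 CPM in SSC PDGF-. It rose with a log2 fold change of 0.81 (SE 0.234, adjusted p = 0.0471 by edgeR). The groups did not overlap, but the call was lost with any one of the 6 libraries left out. The calls of MRPL11 and MRPL27 were each kept in 1 of these 6 fits and that of MRPL16 in 3, while MRPS30 kept its call in 6.

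**Figure D2:**
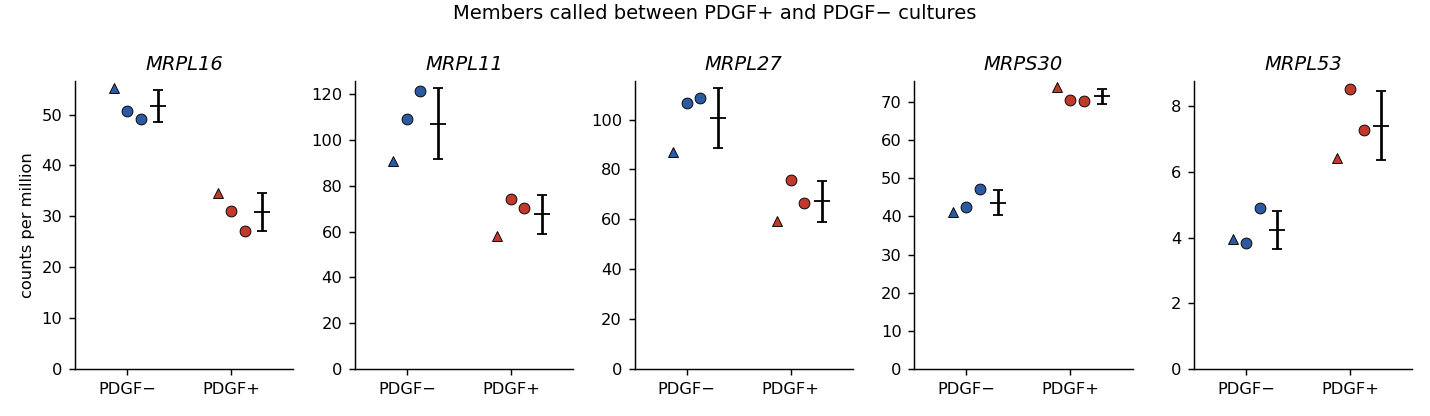
Level in CPM of the 5 called members in each library of SSC PDGF- (blue) and SSC PDGF+ (red), on axes that start at 0, with triangles for batch 1, circles for batch 2 and the group mean ± SD (n = 3) beside the points. MRPL16, MRPL11 and MRPL27 lie lower and MRPS30 and MRPL53 higher in every SSC PDGF+ library than in any SSC PDGF- library.

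Because the libraries of a replicate number share a batch, the same comparison was also made with the replicate number as a block. With the replicate block, 11 of 49 members were higher and 14 lower in SSC PDGF+, with a median of -0.002, against 31.1% of all genes tested called higher and 29.0% called lower. Among the 45 members with counts of their own, 11 were higher and 11 lower. All 5 members called without the block were called in the same direction with it. By the chi-square per degree of freedom of the counts, replicates 2 and 3 differed by 3.36 in SSC PDGF+ and 3.63 in SSC PDGF-. Either differed from replicate 1 of its group by 44.8 to 57. With replicates 2 and 3 summed, edgeR called no member without a block. Among the members with counts of their own that were called with the block alone, MRPL23 had the largest fall and MRPL3 the largest rise.

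MRPL23 measured 32.8, 70.9 and 64.1 CPM in SSC PDGF+ and 64.7, 111.7 and 126.4 CPM in SSC PDGF-. Replicate 1 was lowest in both groups, and the groups overlapped, since SSC PDGF- replicate 1 lay below SSC PDGF+ replicate 2. The log2 fold change was -0.85 (SE 0.333, adjusted p = 0.115, edgeR) without the block. With the replicate block it was -0.87 (SE 0.0723, adjusted p = 1.08e-09, edgeR).

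MRPL3, a protein of the core of the large subunit, measured 82.8, 75.4 and 66.2 CPM in SSC PDGF+ and 59.5, 49.3 and 46.4 CPM in SSC PDGF-. The groups did not overlap. The log2 fold change was 0.53 in both fits, with an SE of 0.161 (adjusted p = 0.0553, edgeR) without the block and of 0.0705 (adjusted p = 1.29e-06, edgeR) with it.

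By subunit and origin, the calls fell as follows. Among all genes tested, 7.61% were called higher and 10.7% lower without the block, and 31.1% and 29.0% with it. Of the 23 tested large-subunit members with a bacterial counterpart, none was higher and 3 were lower without the block, and 5 were higher and 9 lower with the replicate block, with a median log2 fold change of -0.11. Of the 15 large-subunit members specific to mitochondria, 2 were higher and none lower without the block and 3 were higher and 1 lower with it, with a median of 0.086. Of the 10 tested small-subunit members none was called without the block. With the block, MRPS23 and MRPS31 were higher, and MRPS24, MRPS15, MRPS9 and MRPS18B were lower. MRPS36 had a log2 fold change of 0.36 (adjusted p = 0.251, edgeR) without and of 0.37 (adjusted p = 0.00597, edgeR) with the replicate block. The 3 MRPS18 paralogs had log2 fold changes of -0.10 (MRPS18A), -0.23 (MRPS18B) and 0.16 (MRPS18C), none called without the block. After a correction of each library for the GC content and length of transcripts, described further on and here without a block, the large-subunit members with a bacterial counterpart had 8 higher, 2 lower and a median of 0.052. Those specific to mitochondria then had 8 higher, none lower and a median of 0.31, and the small-subunit members of the same classes had medians of 0.024 and 0.068. No difference between these classes was tested.

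At none of the sites named here did all tested members share one sign of the log2 fold change. Without the block, 2 were positive and 2 negative in the stalk and its base. Around the exit tunnel 5 were positive and 2 negative, and in the central protuberance 1 was positive and 4 were negative. In the stalk and its base, MRPL53, on the gene record described above, rose and MRPL11 fell. MRPL10 had a log2 fold change of -0.41 with counts it shares with SCRN2, and MRPL54 one of 0.18 (adjusted p = 0.748, edgeR). Of the 7 tested members around the exit tunnel none was called without the block and MRPL23 alone with it. Of the 5 in the central protuberance, MRPL27 was lower without the block, and MRPL27 and MRPL52 were lower with it. MRPL58, which rescues stalled ribosomes as a built-in peptidyl-tRNA hydrolase, had a log2 fold change of -0.12 (adjusted p = 0.669, edgeR).

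**Figure D3:**
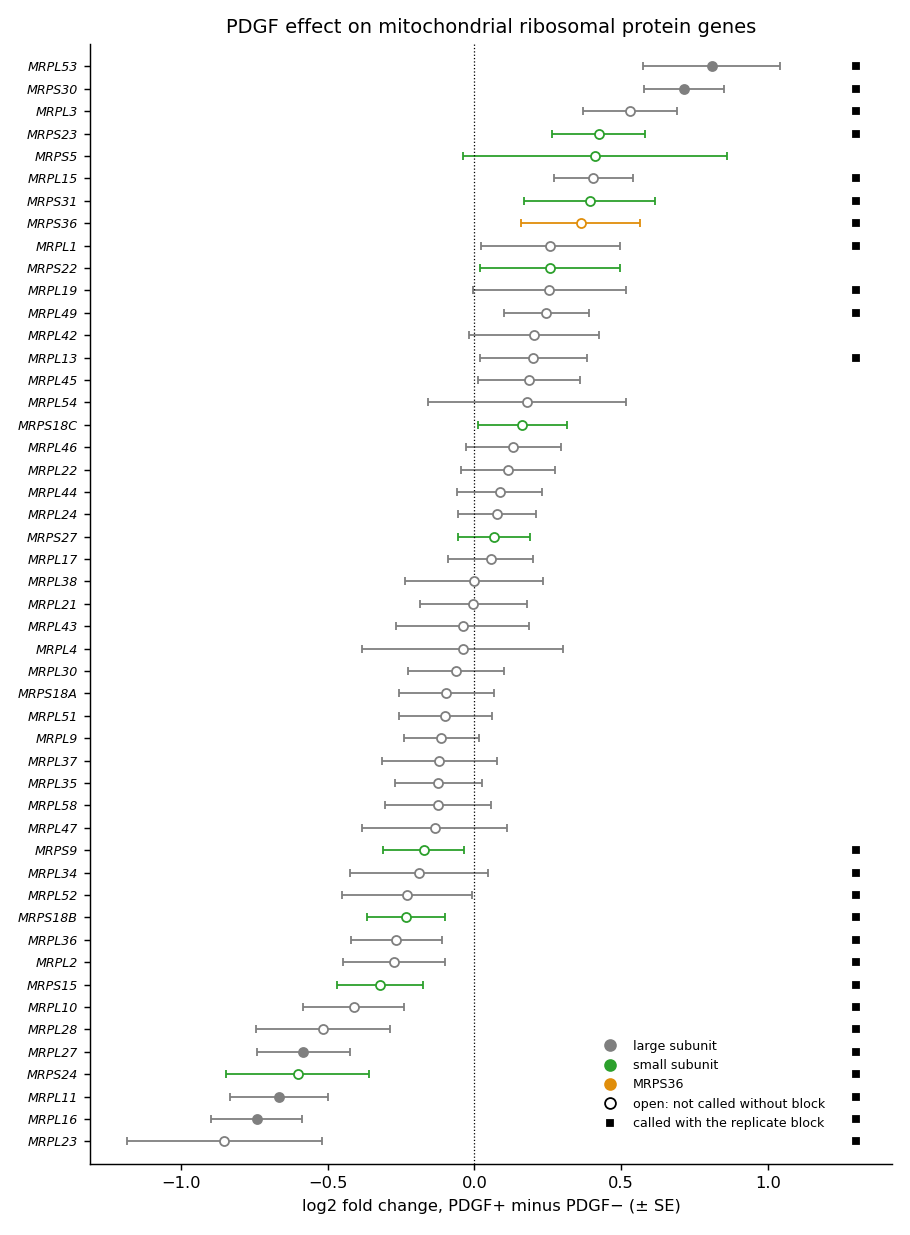
Log2 fold change of SSC PDGF+ over SSC PDGF- for the 49 tested members with its standard error, from the fit without a block, coloured by subunit. Filled circles mark the 5 members called without the block and black squares the 25 called with the replicate block. MRPL53 lies highest at 0.81 and MRPL23 lowest at -0.85.

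Summed over the 53 members, the level was 2588, 2961 and 2849 CPM in SSC PDGF+ and 2714, 3126 and 3123 CPM in SSC PDGF-. The means of 2799 ± 192 and 2988 ± 237 CPM (SD, n = 3) differed by less than the SD of SSC PDGF-. Within each of the 3 pairs of same-numbered libraries the sum was lower in SSC PDGF+. The large subunit's summed level was 4.44 ± 0.173 times that of the small subunit in SSC PDGF+, against 4.33 ± 0.212 times in SSC PDGF-. Both sums cover only genes with a row in the count table, so the ratio is not one of whole subunits. This ratio was higher with PDGF in each of the 3 pairs, and neither the sums nor the ratios were tested. The cytosolic ribosomal proteins, the counterparts in the main protein factory of the cell, summed to 41520 ± 6202 CPM in SSC PDGF+ and to 62020 ± 10850 CPM in SSC PDGF-. Of their 55 tested genes none was higher and 18 were lower without the block, against 7.61% and 10.7% of all genes tested. Their median log2 fold change was -0.52. The block gave 3 higher and 52 lower, against 31.1% and 29.0% of all genes tested. With the correction for GC content and length, without a block, 4 were higher and 9 lower, against 23.1% and 20.3%. The median was then -0.11. Of 53 tested nuclear genes of respiratory chain subunits, UQCRH and COX7C alone were called, both lower, with a median of -0.14. The block gave 11 higher and 25 lower, and with the same correction, without a block, 20 of 49 were higher and 2 lower and the median turned to 0.23. UQCRH had the same count in every library as NSUN4, an RNA methyltransferase of the mitochondrial ribosome, so that the call of NSUN4 among the assembly factors rests on the same reads.

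In the other steps of mitochondrial translation few genes were called without a block, where 7.61% of all genes tested were called higher and 10.7% lower. Of the 3 ribosomal proteins under other names in the table (DAP3, PTCD3 and GADD45GIP1) none was called. Of 20 mitochondrial aminoacyl-tRNA synthetases and GatCAB subunits, LARS2, which charges the leucine transfer RNA, was called, from 35.2 ± 3.27 CPM in SSC PDGF- to 56.9 ± 5.21 CPM in SSC PDGF+ (log2 fold change 0.69, SE 0.153, adjusted p = 0.0168 by edgeR). None of 12 translation factors and none of 14 genes of mitochondrial transcription and RNA handling was called. Under the replicate block 4 of the factors were higher and 2 lower, and 7 of the 14 genes were higher and none lower. The medians were 0.12 and 0.24. This fit called 31.1% of all genes tested higher and 29.0% lower. For the 14 genes the block together with the correction gave 4 higher and 1 lower, against 30.8% and 26.1% of all genes tested. The block also gave 5 higher and 5 lower among the synthetases and GatCAB subunits, and called GADD45GIP1 lower. Of 22 assembly and ribosomal RNA modification factors, NSUN4 and TRUB2 were called, both lower, and the block gave 6 higher and 7 lower. Of 10 nuclear regulators of mitochondrial genes, MYC was called higher, with 92.2 ± 8.05 CPM in SSC PDGF+ and 64.7 ± 7.01 in SSC PDGF- (log2 fold change 0.51, SE 0.148, adjusted p = 0.0474 by edgeR). With each of the 6 libraries left out in turn, MYC and TRUB2 each kept their call in 1 fit, LARS2 in 2 and NSUN4 in 3. NRF1 had a log2 fold change of -0.43 (adjusted p = 0.123, edgeR), GABPA one of 0.73 (adjusted p = 0.128), YY1 one of 0.47 (adjusted p = 0.0652) and PPARGC1A one of -0.81 (adjusted p = 0.0712). With the replicate block these 4 regulators passed the threshold in the same directions.

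The second comparison set batch 1 against batch 2, with the PDGF group as a term. Of 49 members, 10 were higher and 19 lower in batch 1, against 27.9% of all genes tested called higher and 29.3% called lower. The median log2 fold change of the members was -0.11, against 0.001 over all genes tested. With library totals in place of TMM, 17 were higher and 15 lower, and with upper quartile scaling 14 and 17. Of the 29 called members, 17 kept their call with each library left out in turn.

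MRPL4, the counterpart of a bacterial protein that binds ribosomal RNA early in assembly, differed most among members with no correction for GC content. It measured 52.3 and 51.9 CPM in the batch 1 libraries of SSC PDGF+ and SSC PDGF-. In batch 2 it measured 102.4 and 104.7 CPM in SSC PDGF+ and 110.2 and 104.6 CPM in SSC PDGF-. The batches did not overlap and the groups lay side by side within each, with a log2 fold change of -1.02 (SE 0.0681, adjusted p = 9.35e-12, edgeR) for batch 1 over batch 2 and of -0.04 for PDGF.

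Among members with counts of their own, MRPL23 (log2 fold change -0.95), MRPL54 (-0.64), MRPL38 (-0.62), MRPL34 (-0.60) and MRPL43 (-0.59) were also lower in batch 1, all at a GC content of 55% or more. The value of MRPL54 ran from -1.13 to -0.25 with one library left out and was called in 3 of 6 such fits, while the other four were called in 6 of 6. Higher in batch 1 were MRPL47 (0.60), MRPL19 (0.57), MRPS22 (0.55) and MRPL1 (0.52), all at a GC content under 45%. MRPL47 measured 44.1 and 45.8 CPM in the batch 1 libraries of SSC PDGF+ and SSC PDGF-, and 28.2 and 27.3 CPM in SSC PDGF+ and 33.3 and 30.2 CPM in SSC PDGF- in batch 2. MRPS5, whose counts are those of ZNF514, had the largest rise at 0.95, on 1.44 to 5.54 CPM.

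Both comparisons moved with base composition across the members. Of the 15 members with a GC content under 45%, 9 were higher and none lower in batch 1, with a median log2 fold change of 0.27, where the 3884 genes tested in this range had a median of 0.41. Of the 19 members from 45% to under 55%, 1 was higher and 6 were lower, with a median of -0.11, where 3780 genes had 0.0068. Of the 15 members at 55% or more, none was higher and 13 were lower, with a median of -0.58, where 3573 genes had -0.57. For PDGF with the replicate block, the same classes held 8 higher and none lower, 1 higher and 6 lower, and 2 higher and 8 lower. Over all genes tested, 27.9% were called higher and 29.3% lower in batch 1, and 31.1% and 29.0% with PDGF under the block. The shares of all genes called within each class were not computed, so these counts cannot be set against those of other genes in their class. The median PDGF log2 fold changes of the members in these classes, from the fit without a block, were 0.26, -0.10 and -0.19, and those of all genes tested were 0.18, 0.021 and -0.21.

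Across the 49 members, GC content and the log2 fold change of batch 1 over batch 2 had a Pearson r of -0.768, and GC content and the PDGF log2 fold change one of -0.461. The same values over the 11237 genes tested with a known GC content were -0.79 and -0.205. Transcript length gave 0.424 with the PDGF and 0.321 with the batch difference. These correlations are across genes of the same 6 libraries, which are not independent replicates, and GC content and log2 length were themselves related among the members (r = -0.40).

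**Figure D4:**
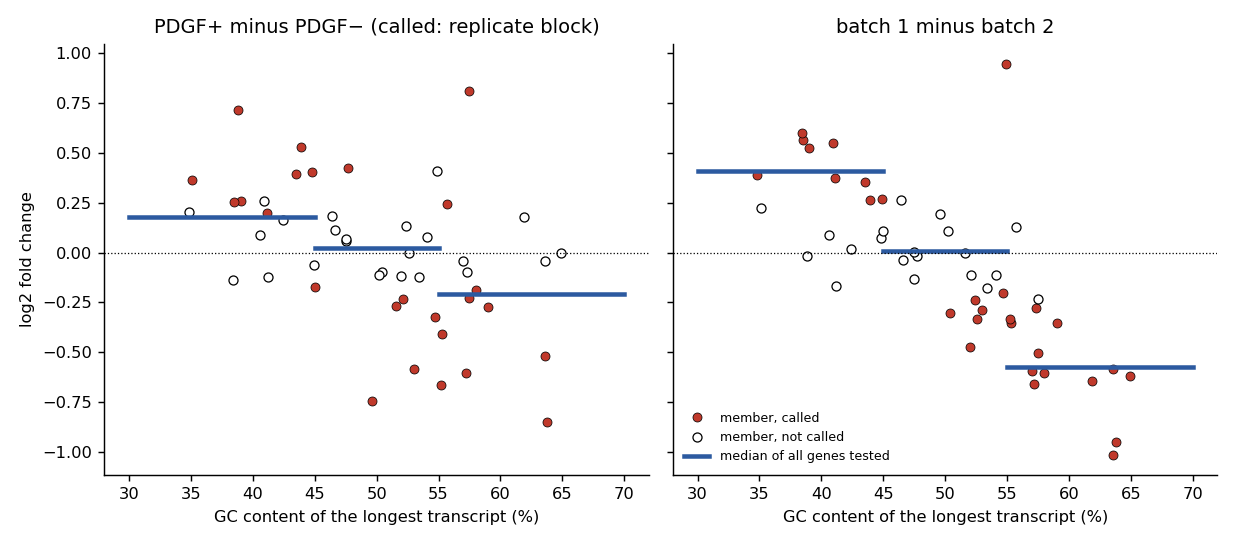
Log2 fold change of the 49 tested members against the GC content of the longest transcript, for SSC PDGF+ over SSC PDGF- on the left (from the fit without a block, red where called with the replicate block) and batch 1 over batch 2 on the right (red where called). Blue lines give the median of all genes tested under 45%, from 45% to under 55% and at 55% or more. On the right the medians of the members in these classes are 0.27, -0.11 and -0.58.

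A correction of each library for GC content and transcript length changed the counts in both comparisons. Without a block it left 19 members higher and 2 lower in SSC PDGF+, against 23.1% and 20.3% of the 11237 genes tested, and a median log2 fold change of 0.22, against 0.024 over those genes. With the replicate block and the correction, 24 members were higher and 6 lower, against 30.8% and 26.1%, with a median of 0.23. Of the members called with the block before the correction, 10 stayed higher and 5 stayed lower, MRPL34 and MRPL52 turned from lower to higher, and 12 not called before were higher after it. MRPL16 was still called lower under both forms of the correction, with a log2 fold change of -0.44 in place of -0.74 without a block, and MRPL11 with one of -0.21 in place of -0.67 (edgeR adjusted p = 0.0115 and 0.045). MRPL53 was still called higher under both, at 0.93, on the GC content and length of its longest transcript, whose coding product was not checked. MRPL23 went from -0.85 to -0.21 (edgeR adjusted p = 0.0689 without and 0.0149 with the block). MRPS30 had a log2 fold change of 0.39 with the correction (adjusted p = 0.0665 without and 0.000158 with the block, edgeR), and MRPL27 one of -0.16 (adjusted p = 0.106 and 0.0332). In the batch comparison the correction left 5 members higher and 10 lower, against 10% and 8.62%, with a median of -0.012, and MRPL28 and MRPL38 turned from lower to higher in batch 1. The batch difference of MRPL4 became -0.21 (edgeR adjusted p = 0.0333), that of MRPL23 -0.073 and that of MRPL47 0.14, neither of the last pair called, while those of MRPS5, on shared counts, and MRPL35 were 1.23 and -0.55. MRPL19, MRPS22, MRPL1 and MRPL54 had batch differences of 0.094, 0.10, 0.11 and 0.11 after it. Length entered this result: a correction for length alone gave a median of 0.22 for PDGF and one for GC content alone gave 0.01.

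Within each batch, the PDGF differences of the members were computed from libraries that the batches do not share. The log2 differences in batch 1, from 1 library a group, and in batch 2, from 2 libraries a group, had the same sign for 39 of 49 members (79.6%), against 84.8% of all genes tested. Pearson's r between them was 0.825 across the 49 members and 0.868 across the 11539 genes tested. MRPL16 differed by -0.67 in batch 1 and by -0.78 in batch 2, and MRPS30 by 0.85 and 0.65. The signs were opposite for 10 members, and in each of these the smaller difference was at most 0.065 in size. MRPL54 had 0.82 in batch 1, on 8.91 and 5.01 CPM, and -0.020 in batch 2. MRPL42 had 0.62 and -0.065.

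A PDGF effect that differed between batches was tested with an interaction term. No member and no gene of the 11539 tested was called by edgeR, a background of 0%, and at an unadjusted p under 0.05 there were 4 members (8.16%) and 526 genes (4.56%). DESeq2 called no gene, with 1 member and 123 genes at an unadjusted p under 0.05, and limma-voom called 1 gene and no member, with 4 members and 588 genes. The lowest unadjusted p among members was that of MRPL42 (0.0039, log2 difference 0.69, edgeR adjusted p = 0.968). The fit had 2 residual degrees of freedom.

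**Figure D5:**
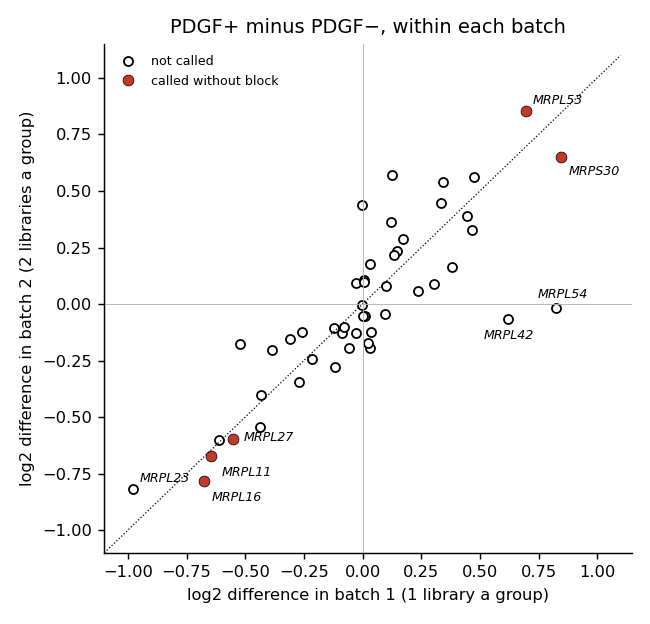
Log2 difference of SSC PDGF+ over SSC PDGF- in batch 2 against that in batch 1 for the 49 tested members, with the line of equal differences dotted and the 5 members called without the block in red. The points had the same sign in both batches for 39 members, and MRPL54 and MRPL42 lie farthest to the right of the line.

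Promoters were read from Mmul_10 by the start of each gene in the RefSeq annotation, from 250 bases before to 50 after it. Searched on both strands were 3 motifs known from nuclear genes of mitochondrial proteins: GCGCANGCG for NRF1, CCGGAAG for ETS factors such as GABPA, and AAGATGGC for YY1. The ETS-type letters were found in 15 of 53 member promoters (28.3%), against 9.90% of the promoters of 21107 protein-coding genes. Among genes that passed the count filter the shares lay closer together, at 26.5% of 49 members and 13.7% of 11145 protein-coding genes. The NRF1-type letters were found in 7 (13.2%, against 8.12%) and the YY1-type letters in 4 (7.55%, against 2.41%). At least one of the 3 was in 22 (41.5%, against 18.4%). Among genes that passed the filter the shares were 14.3% against 11.6% for the NRF1 type, 8.16% against 3.22% for the YY1 type and 40.8% against 25.5% for any of the 3. In the 250 bases before the start alone the last share was 26.4%, against 13.5%, and 26.5% against 18.7% among genes that passed the filter. A match of letters is a description of the sequence, and binding was not measured.

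Upstream sequence is shown for MRPL51, the most abundant member per kb, for MRPL34, which had the most NRF1-type matches, and for MRPL16 and MRPS30, the called members with the lowest adjusted p in each direction. Capitals mark the ETS-type letters in MRPL51 and MRPL16 and the NRF1-type letters in MRPL34, on either strand, and the last base shown is the one before the annotated start. The stretches lie at chr11:6646330-6646518 (minus strand), chr19:16807502-16807751, chr14:14227939-14227992 and chr6:44937897-44938146 (plus strand). They hold up to 250 bases and end at the exon of a neighbouring gene (NCAPD2 for MRPL51 and LOC114672251 for MRPL16).
MRPL51: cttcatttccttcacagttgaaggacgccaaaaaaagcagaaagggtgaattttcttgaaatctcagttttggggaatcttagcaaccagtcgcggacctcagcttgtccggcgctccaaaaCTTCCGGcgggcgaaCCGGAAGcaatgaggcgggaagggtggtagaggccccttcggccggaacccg
MRPL34: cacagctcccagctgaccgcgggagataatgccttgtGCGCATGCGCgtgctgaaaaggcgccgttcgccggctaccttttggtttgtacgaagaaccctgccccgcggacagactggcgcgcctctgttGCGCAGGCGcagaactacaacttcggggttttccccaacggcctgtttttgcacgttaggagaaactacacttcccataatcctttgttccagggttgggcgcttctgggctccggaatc
MRPL16: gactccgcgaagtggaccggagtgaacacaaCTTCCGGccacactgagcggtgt
MRPS30: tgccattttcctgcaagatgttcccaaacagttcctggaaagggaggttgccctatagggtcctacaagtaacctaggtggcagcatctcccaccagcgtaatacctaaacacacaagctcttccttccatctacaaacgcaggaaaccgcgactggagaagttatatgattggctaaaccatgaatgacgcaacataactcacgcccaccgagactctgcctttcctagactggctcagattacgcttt
MRPL51 held 2 ETS-type matches in 189 bases and MRPL34 3 NRF1-type matches, a pair of which overlap. MRPL16 held 1 ETS-type match, 23 to 17 bases before the start. MRPS30 held none of the 3 motifs in this stretch. Of the 5 members called without the block, MRPL16 and MRPL27 alone had a match in the window, both of the ETS type. An exon of EME1 reaches the base just before the annotated start of MRPL27.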

How the data were processed

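The authors deposited raw, unnormalized counts per gene for 6 libraries, a few of them not whole, so that the columns were handled like expected counts, with each value rounded. The submitters' processing notes name fastp, HISAT2 2.1.0, SAMtools and featureCounts 2.0.1 and the builds Mmul_10 and Mmul_8.0.1. Gene symbols, lengths, GC content and coordinates come from RefSeq release 103 of Mmul_10, which held 2682 of the 2686 LOC identifiers of the table. The table itself holds no coordinates.

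Counts were normalized by TMM in edgeR 4.0.16 (R 4.3.3), filtered with filterByExpr by group, and tested over 11539 genes by edgeR's quasi-likelihood test at a Benjamini-Hochberg adjusted p under 0.05. Designs were group alone, group with the replicate number as a block, group with batch, and their interaction. The standard error of a log2 fold change was taken as its size over the root of F, and differences within a batch had 0.5 counts added. GC content and length were corrected by splines of 5 degrees of freedom per library. Alternatives were DESeq2 1.42.0, limma-voom (limma 3.58.1), other scalings and filters, a threshold of 0.01, and each library left out. The steps were tested on simulated counts with 200 changed genes.

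The members, gene lists and tests were chosen with earlier results of these data known. Named were the members called with PDGF, those called with the block alone, the largest called changes in each direction between batches, and the ends of the level order. By the labels, same-numbered libraries come from the same batch. Their deviations from the group means correlated at 0.812 (replicates 1), 0.475 (replicates 2) and 0.503 (replicates 3), and same-numbered libraries were taken as pairs. Replicates 2 and 3 correlated to a like degree across numbers (0.47 and 0.526). These values set batch 1 apart from batch 2 but do not show which libraries of batch 2 belong together, so that pairing there rests on the numbers alone. Nothing says that replicates come from separate cultures, and p-values then measure only the spread between these libraries. Python 3.11.15 with pandas 2.3.3 and matplotlib 3.10.9 served for tables and plots.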

Additional observations from a re-analysis of the deposited data

How the results depend on the processing

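RLE size factors, library totals, no count filter and DESeq2 left the counts of members called with PDGF within 1.5 times of 2 higher and 3 lower. The count of higher members was 1 with a threshold of 0.01, upper quartile scaling, at least 10 counts in every library, limma-voom, or without members that overlap or share counts with another gene. That of lower members was 0 at a threshold of 0.01. With the replicate block, where the libraries were paired by number, the counts were 11 and 14, the same as with batch as a term. In batch 2 alone they were 8 and 12. With the GC content and length correction 19 members were higher, with it and the replicate block together 24 were higher and 6 lower, and the median was 0.22 and 0.23. GC content alone, a setting chosen after seeing the data like the next, gave 6 higher and 8 lower, and length alone gave 7 and 0 (none at an unadjusted p under 0.05, edgeR) with a median of 0.22. With one library left out, 1 to 2 members were higher and 0 to 6 lower: 6 without SSC PDGF- replicate 1, none without SSC PDGF+ replicate 2 or 3 or SSC PDGF- replicate 2 (by edgeR, 5, 5 and 3 at an unadjusted p under 0.05), and 1 without either of the others. With replicates 2 and 3 summed edgeR called none, with 2 higher and 2 lower at an unadjusted p under 0.05. The block turned the direction of no named member.

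In the batch comparison 17 members were higher with library totals, where the median of all genes tested moved to 0.11. With the GC content and length correction 5 were higher and 10 lower, with GC content alone 4 and 9, with length alone 16 and 11, and without the group term 1 and 5. Leaving out a library gave 6 to 10 higher and 13 to 19 lower members, the 6 without SSC PDGF+ replicate 1. The median of -0.11 became -0.054 with upper quartile scaling, -0.0052 with library totals, -0.012 with the GC content and length correction, -0.024 with GC content alone and 0.024 with length alone.

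For single members, the correction turned the PDGF difference of MRPL28 (0.052, with the block 0.050), MRPS15 (0.024 and 0.024), MRPL2 (0.056 and 0.065) and MRPL36 (0.13 and 0.13, and 0.16 with length alone). It turned the batch difference of MRPL42 (-0.19, with GC content alone -0.14), MRPL54 (0.11 and 0.041), MRPL38 (0.23 and 0.25) and MRPL28 (0.26 and 0.21). The cause was not tested. The share of member promoters with any of the 3 motifs fell from 41.5% to 26.4% with the shorter window, and the median level per kb moved by less than its spread with library totals or the median transcript length.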
